A study of Mus musculus with 8 samples.

Results

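Egr1, Egr2, Egr3, Nr4a1, Nr4a2, Nr4a3, Klf2, Klf4, Klf6 and Ier2 are early response genes, which cells switch on quickly after a signal and without new protein synthesis. They were taken as every probe set whose single gene symbol in the array's annotation is one of these names, which gave 24 probe sets for 10 genes, of 45037 probe sets and 18193 genes measured. The arrays compared L-GMPs, sorted from the bone marrow of mice whose genotype is labelled HoxA9+Meis1 AML (acute myeloid leukaemia), with GMPs sorted from the marrow of mice whose genotype is labelled Normal, on 4 arrays each. GMP stands for granulocyte-macrophage progenitor, the marrow cell that gives rise to neutrophils and monocytes. The strain, age and sex of the mice, the way HoxA9 and Meis1 were introduced, the gate antigens, and whether marrow of several mice was pooled are not given in the sources used here. It is also not given whether the arrays stand for separate mice, so the tests below measure the spread between these arrays, which may be technical.

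The EGR proteins are zinc finger transcription factors induced through ERK and serum response factor, and in myeloid progenitors EGR1 and EGR2 act in macrophage differentiation together with NAB corepressors. The NR4A proteins are nuclear receptors with no known physiological ligand that bind DNA alone or with RXR, and mice lacking both Nr4a1 and Nr4a3 develop acute myeloid leukaemia. KLF2, KLF4 and KLF6 are zinc finger factors that bind CACCC and GC-rich elements. KLF4 is needed for the differentiation of mouse inflammatory monocytes, KLF2 restrains the activation of monocytes and keeps lymphocytes quiescent, and KLF6 acts in macrophage activation. IER2 is a small nuclear protein encoded by a growth factor-inducible gene.

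All values are log2 of the intensity after robust multi-array averaging (RMA), in which 1 unit is a factor of 2. Per array the lower quartile of all probe sets lay at 3.65 to 3.75, the median at 5.24 to 5.49 and the upper quartile at 7.39 to 7.46. Arrays correlated at 0.983 to 0.994 within groups and at 0.967 to 0.974 between them, across probe sets, which are not independent of each other. The bright probe set of Hoxa9 (1421579_at) measured 10.87 to 12.29 in L-GMPs, against 6.74 to 6.84 in GMPs, whereas its other probe set (1455626_at) measured 2.54 to 2.91 in L-GMPs, against 9.19 to 9.79 in GMPs. The 3 probe sets of Meis1 were all lower in L-GMPs, with differences of -3.05, -2.07 and -1.47, so the arrays show no excess of Meis1 for the label. Which stretch of each transcript these probe sets read, and which stretch the label's genes carry, is not given. Mpo, the myeloperoxidase that marks granulocyte-macrophage progenitors, measured 13.12 to 13.35 in L-GMPs and 13.58 to 13.67 in GMPs, high on every array. Mpo fell by 0.39, and the granule protease genes Elane and Prtn3 fell by 1.75 and 0.84. A further granule protease gene, Ctsg, differed by -0.15 and did not pass (limma adjusted p 0.355 over all probe sets). The surface receptor gene Kit fell by 0.96. The progenitor antigens Cd34 (8.86 to 10.07 in L-GMPs and 9.45 to 9.96 in GMPs) and Fcgr3 (10.32 to 10.87 in L-GMPs and 10.63 to 10.68 in GMPs) did not pass the test.

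Of the 10 genes, 5 rose in L-GMPs (Egr1, Egr3, Klf2, Klf6 and Ier2), 1 fell (Nr4a2), and Egr2, Nr4a1, Nr4a3 and Klf4 did not pass the threshold of an adjusted p of 0.05 by limma with Benjamini-Hochberg adjustment over all genes. Over all 18193 genes, 12.1% passed it in either direction, 4.78% higher and 7.27% lower in L-GMPs. The 4 arrays of each group did not overlap in 6 of the 10 genes, 5 higher and 1 lower in L-GMPs, against 18.2% of all genes. The differences were positive in 9 of 10 genes, with a median of 1.0 on the log2 scale over the 10, against 0.01 over all genes. Each gene is represented by its brightest probe set. Of the 24 probe sets, 10 rose, 3 fell and 11 did not pass, against 10.9% of all probe sets in either direction, 3.89% higher and 7.03% lower. The count of 6 genes ranged from 3 without GMP B or without GMP C to 7 without L-GMP B. Over all genes 2193 passed as deposited, 1411 without GMP B, 1470 without GMP C and 2207 without L-GMP B.

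**Figure D1:**
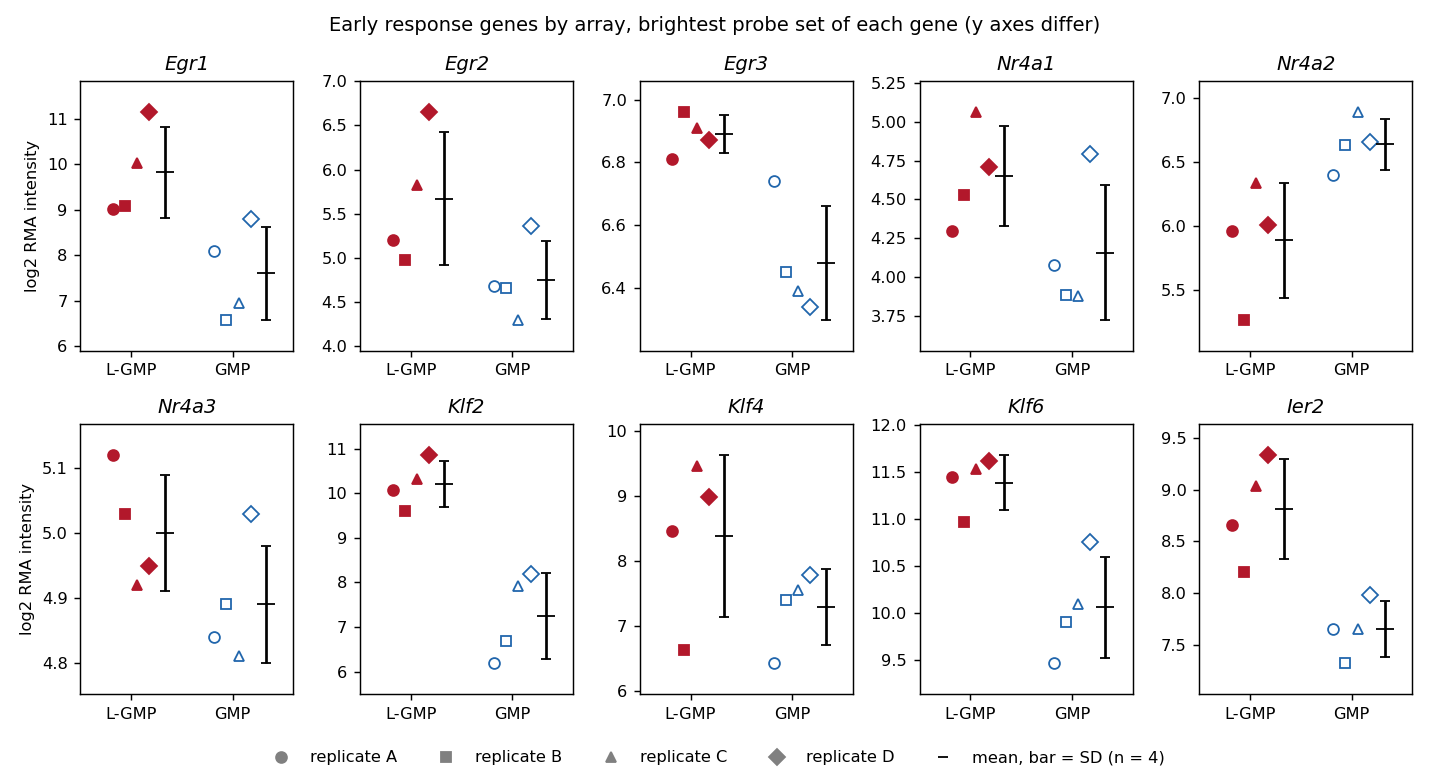
Log2 RMA intensity of the brightest probe set of each of the 10 genes on the 8 arrays, L-GMP filled on the left and GMP open on the right, with replicates A to D by symbol and the mean with SD (n = 4) beside each group. The y axes differ between genes. The 4 L-GMP arrays lie above every GMP array for Egr1, Egr3, Klf2, Klf6 and Ier2 and below every GMP array for Nr4a2.

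Klf2 had the largest difference of the 10. It measured 10.08, 9.61, 10.31 and 10.85 in L-GMPs A to D, against 6.20, 6.69, 7.92 and 8.19 in GMPs A to D. The groups did not overlap, and GMPs A and B were the lowest of all arrays. Klf2 averaged 10.21 ± 0.51 in L-GMPs and 7.25 ± 0.96 in GMPs (SD, n = 4 each), a difference of 2.97 (SE 0.42), or 7.81-fold, with a limma adjusted p of 0.00115, and it ranked 23 of 18193 genes by the size of its rise. Over 19 other ways of processing or leaving out arrays the difference stayed between 2.61 and 3.48 and the limma adjusted p at or below 0.00917.

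Klf6 rose in all 5 of its probe sets. The brightest (1418280_at) measured 11.45, 10.97, 11.53 and 11.62 in L-GMPs A to D, against 9.47, 9.90, 10.10 and 10.76 in GMPs A to D. Every L-GMP array was above every GMP array, although GMP D came within 0.21 of L-GMP B. The means were 11.39 ± 0.29 in L-GMPs and 10.06 ± 0.54 in GMPs (SD, n = 4 each), a difference of 1.33 (SE 0.25), or 2.52-fold, with a limma adjusted p of 0.00574. The other 4 probe sets differed by 1.31 to 1.64 on the log2 scale, with limma adjusted p between 0.0107 and 0.0471 over all probe sets. In 2 of them, 1447448_s_at and 1459718_x_at, GMP D lay above the lowest L-GMP array. The dimmest, 1459718_x_at, lost its call without any single array other than L-GMP B and GMP D, with an offset of 16 added and with a trended robust prior, and ranged up to an adjusted p of 0.121 without GMP B, where 1447448_s_at also lost its call at 0.0544.

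The probe sets of Klf4 differed in their calls and agreed in sign. The brighter, 1417394_at, measured 8.47, 6.62, 9.46 and 8.98 in L-GMPs A to D, against 6.43, 7.40, 7.55 and 7.78 in GMPs A to D. L-GMP B lay below 3 of the 4 GMP arrays, whereas the other L-GMP arrays lay above all of them. The means were 8.38 ± 1.25 in L-GMPs and 7.29 ± 0.59 in GMPs (SD, n = 4 each), a difference of 1.09 (95% interval -0.08 to 2.26, limma adjusted p 0.222). Without L-GMP B it was 1.68 with an adjusted p of 0.00666. The other probe set, 1417395_at, measured 8.24, 7.12, 9.20 and 8.48 in L-GMPs A to D, against 6.28, 6.79, 6.93 and 7.28 in GMPs A to D. Here L-GMP B lay below GMP D alone, and the difference of 1.44 (SE 0.37) passed with a limma adjusted p of 0.0334. That call was lost without any single array other than L-GMP B and GMP D, at 0.0686 to 0.0853, and with an offset of 16 added, at 0.0658.

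**Figure D2:**
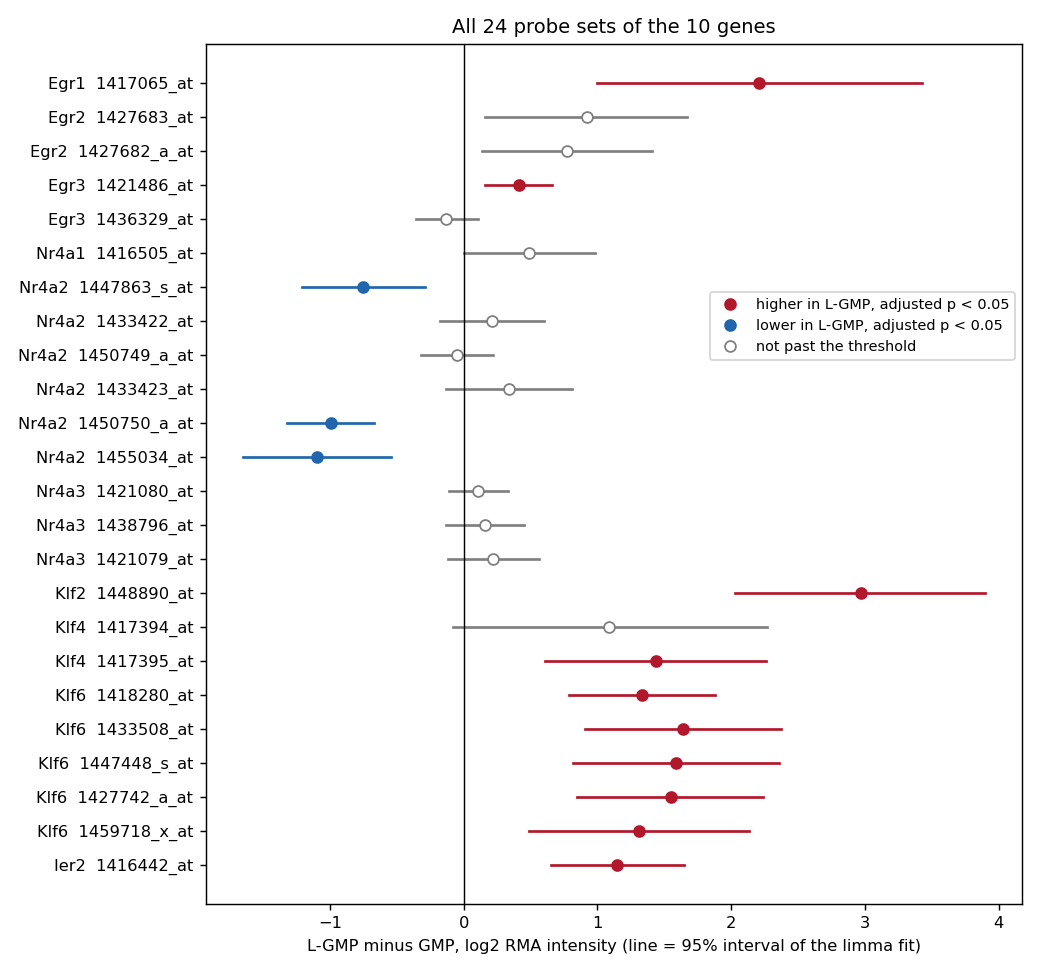
Log2 difference, L-GMP minus GMP, for all 24 probe sets, with the 95% interval of the limma fit over all probe sets. Red marks higher and blue lower in L-GMPs at an adjusted p under 0.05, and open grey marks did not pass. All 5 Klf6 probe sets lie between 1.31 and 1.64, and the 6 of Nr4a2 run from -1.10 to 0.34.

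The promoters of the KLF genes are shown because Klf2, Klf4 and Klf6 have among the largest differences of the group, and that of Nr4a2 because it is the gene that fell. They come from RefSeq (GRCm38.p6), 250 bases before the transcription start, 5′ to 3′ on the gene's strand. RefSeq windows were matched for 7 of the 10 genes, and the promoters of Egr1, Egr3 and Ier2 were not used here. Capitals mark matches, on either strand, to a CArG box (the serum response factor site), to TGACG (the core of the cyclic AMP response element), to GCGGGGGCG (an EGR site) and to CACCC (the KLF element). A match on the other strand is capitalised as it reads on the strand printed.
Klf2, chr8:72318812-72319061, plus strand: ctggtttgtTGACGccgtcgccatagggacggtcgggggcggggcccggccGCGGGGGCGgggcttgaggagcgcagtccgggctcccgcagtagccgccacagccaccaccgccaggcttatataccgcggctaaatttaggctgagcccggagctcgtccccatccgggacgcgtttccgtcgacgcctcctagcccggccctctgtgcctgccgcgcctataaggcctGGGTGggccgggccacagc
Klf4, chr4:55532476-55532725, minus strand: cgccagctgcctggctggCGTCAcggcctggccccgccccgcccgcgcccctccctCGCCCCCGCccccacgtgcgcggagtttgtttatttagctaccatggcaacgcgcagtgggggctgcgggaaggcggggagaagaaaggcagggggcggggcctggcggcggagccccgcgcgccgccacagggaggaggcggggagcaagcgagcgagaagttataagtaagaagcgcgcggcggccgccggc
Klf6, chr13:5861239-5861488, plus strand: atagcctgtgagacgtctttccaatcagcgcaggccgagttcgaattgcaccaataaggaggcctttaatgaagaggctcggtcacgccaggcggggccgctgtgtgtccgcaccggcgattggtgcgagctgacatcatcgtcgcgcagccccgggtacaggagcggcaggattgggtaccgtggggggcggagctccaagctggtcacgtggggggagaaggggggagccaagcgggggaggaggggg
Nr4a2, chr2:57124004-57124253, minus strand: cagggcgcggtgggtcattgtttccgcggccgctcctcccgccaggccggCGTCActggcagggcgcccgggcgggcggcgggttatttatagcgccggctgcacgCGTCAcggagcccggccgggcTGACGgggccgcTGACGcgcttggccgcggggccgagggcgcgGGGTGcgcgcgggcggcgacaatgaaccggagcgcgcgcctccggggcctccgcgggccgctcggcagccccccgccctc

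Different starts of Egr2 have different CArG boxes, and that of another start, at bases -72 to -63 from it, is not shown. The CArG box below, of the Egr2 window chosen for display, is given with 10 bases on each side. It is shown because a CArG box is the motif that serum response factor reads and no other gene matched had one.
Egr2, chr10:67537787-67537816, plus strand: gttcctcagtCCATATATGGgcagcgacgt

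In windows of 300 bases (250 before and 50 after the start), TGACG was found in 8 of the 11 windows of the 7 genes, against 20.8% of the 32851 windows of all genes. Egr2 has 5 of the 11 windows, some of which overlap, and 3 of them hold TGACG. GCGGGGGCG was found in Klf2, Klf4 and Nr4a1, against 2.91% of all windows, with the Klf2 match at bases -199 to -191 and the Klf4 match at -194 to -186 from the start. A CArG box was found in 4 windows of Egr2, against 1.63% of all windows, and CACCC in 7 of the 11, against 57.5%. The full element TGACGTCA (1.79% of all windows), the EGR site GCGTGGGCG (0.612%), the AP-1 site TGANTCA (7.81%) and the NR4A site AAAGGTCA (1.51%) matched none of the 7, and the Klf6 window held none of the 8 motifs. Matches of TGACG and CACCC overlapped in Nr4a3. The 11 windows are 56.0% to 81.7% G and C, against a median of 52.7% over all windows, and the part of base composition in any of these matches was not tested.

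Egr1 had the largest difference of the EGR genes. It measured 9.03, 9.08, 10.04 and 11.15 in L-GMPs A to D, against 8.09, 6.59, 6.95 and 8.81 in GMPs A to D. The groups did not overlap, and the spread was wide in both, with GMP D within 0.22 of L-GMP A. The means were 9.83 ± 1.0 in L-GMPs and 7.61 ± 1.02 in GMPs (SD, n = 4 each), a difference of 2.21 (SE 0.55), or 4.64-fold, with a limma adjusted p of 0.0251. The call was lost without L-GMP C (adjusted p 0.0615), GMP B (0.0749) or GMP C (0.0794), and with a trended robust prior (0.0841), while the difference stayed between 1.77 and 2.86.

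Egr2, like Egr1, was highest on arrays C and D among L-GMPs and on array D among GMPs. Its brighter probe set (1427683_at) measured 5.20, 4.98, 5.83 and 6.65 in L-GMPs A to D, against 4.68, 4.66, 4.30 and 5.36 in GMPs A to D. L-GMPs A and B lay below GMP D, so the groups overlapped. The means were 5.67 ± 0.75 in L-GMPs and 4.75 ± 0.44 in GMPs (SD, n = 4 each), a difference of 0.92 (95% interval 0.17 to 1.67) that did not pass, with a limma adjusted p of 0.112. It passed without L-GMP B, at 0.0457. The dimmer probe set (1427682_a_at) differed by 0.77, with an adjusted p of 0.119 over all probe sets.

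Egr3 rose least of the 5 genes that rose, and its arrays lay close together. It measured 6.81, 6.96, 6.91 and 6.87 in L-GMPs A to D, against 6.74, 6.45, 6.39 and 6.34 in GMPs A to D (1421486_at). The groups did not overlap, with GMP A nearest to the L-GMPs. The means were 6.89 ± 0.06 in L-GMPs and 6.48 ± 0.18 in GMPs (SD, n = 4 each), a difference of 0.41 (SE 0.11), or 1.33-fold, with a limma adjusted p of 0.0369. That call was lost in 11 of 19 other settings, among them leaving out any single array other than GMP A (0.0639 to 0.104). With the mean of both probe sets the difference was 0.14 (adjusted p 0.274). The other probe set, 1436329_at, measured 2.23 to 2.31 in L-GMPs and 2.23 to 2.56 in GMPs, within the dimmest 10% of probe sets on every array, whose upper limit lay at 2.84 to 2.92, and so carries little information on Egr3.

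Ier2 rose on every L-GMP array. It measured 8.66, 8.21, 9.03 and 9.33 in L-GMPs A to D, against 7.66, 7.33, 7.66 and 7.98 in GMPs A to D. The lowest L-GMP array, B, stood 0.23 above the highest GMP array, D. The means were 8.81 ± 0.48 in L-GMPs and 7.66 ± 0.27 in GMPs (SD, n = 4 each), a difference of 1.15 (SE 0.22), or 2.22-fold, with a limma adjusted p of 0.00803. The adjusted p stayed at or below 0.0304 in all 19 other settings.

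Of the NR4A genes 1 passed the test. Nr4a2, the one gene of the 10 that fell, measured 5.96, 5.27, 6.34 and 6.01 in L-GMPs A to D, against 6.40, 6.63, 6.89 and 6.66 in GMPs A to D (1447863_s_at). L-GMP C came within 0.06 of GMP A and L-GMP B was the lowest of the 8 arrays. The means were 5.89 ± 0.45 in L-GMPs and 6.64 ± 0.20 in GMPs (SD, n = 4 each), a difference of -0.75 (SE 0.20), with a limma adjusted p of 0.038. This call was lost in 9 of 19 other settings, with both other scalings between arrays, with the mean of the gene's probe sets (a difference of -0.39), without L-GMP A, L-GMP D, GMP B, GMP C or GMP D, and without L-GMP B and GMP D together, at adjusted p values of 0.057 to 0.108.

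The 6 probe sets of Nr4a2 fell into a set of 3 that were lower in L-GMPs and a set of 3 that did not differ past the threshold. 1450750_a_at measured 4.63, 5.22, 4.94 and 5.05 in L-GMPs A to D, against 5.75, 6.06, 6.16 and 5.84 in GMPs A to D. All L-GMP arrays lay below all GMP arrays, with a difference of -0.99 (SE 0.15, limma adjusted p 0.00191 over all probe sets) that passed in all 17 other settings run on single probe sets. 1455034_at measured 3.93, 3.89, 4.61 and 4.76 in L-GMPs A to D, against 5.35, 4.99, 5.99 and 5.25 in GMPs A to D. This difference was -1.10 (SE 0.25, adjusted p 0.0191), or 0.0552 without L-GMP A. The probe sets 1433422_at (0.21), 1433423_at (0.34) and 1450749_a_at (-0.05) had adjusted p values of 0.355 to 0.851, and the sign of the last turned with either other scaling. Which transcripts or parts of Nr4a2 each probe set reads is not given.

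Nr4a1 measured 4.30, 4.53, 5.06 and 4.71 in L-GMPs A to D, against 4.08, 3.89, 3.88 and 4.79 in GMPs A to D. GMP D lay above 3 of the 4 L-GMP arrays, and all values lay below the median probe set of their array. The difference of 0.49 (95% interval 0.00 to 0.98) did not pass, with a limma adjusted p of 0.187, and was 0.70 with an adjusted p of 0.0399 without GMP D. Nr4a3 measured 5.12, 5.03, 4.92 and 4.95 in L-GMPs A to D, against 4.84, 4.89, 4.81 and 5.03 in GMPs A to D (1421080_at). The groups overlapped, and the difference of 0.11 had a 95% interval of -0.10 to 0.33 (limma adjusted p 0.511). Its other probe sets were dimmer and differed by 0.16 and 0.22, with adjusted p values of 0.494 and 0.409.

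Several of the genes shared their highest or lowest array within a group. Among the 10 genes GMP D was the highest GMP array for 8, L-GMP B the lowest L-GMP array for 6, and L-GMP D the highest L-GMP array for 5. Egr3 went the other way, with GMP D the lowest GMP array and L-GMP B the highest L-GMP array. These counts were not made over all genes. The mean deviation of the 10 genes from their means over all arrays was 0.33, -0.05, 0.77 and 0.93 in L-GMPs A to D, against -0.72, -0.73, -0.53 and -0.01 in GMPs A to D. GMP D and L-GMP B were therefore almost level, while the 50 other early response genes listed below ran at 0.14, -0.19, 0.58 and 0.58 in L-GMPs A to D, against -0.45, -0.50, -0.31 and 0.16 in GMPs A to D. GMP D also stood apart in the control probe sets that compare the 3′ and 5′ ends of Gapdh, with a log2 difference of 2.74, against 1.24 to 1.55 in L-GMPs and 1.46 to 1.76 in the other GMPs. For Actb that difference was 0.64 in GMP D, against 0.04 to 0.24 in L-GMPs and 0.13 to 0.42 in the other GMPs. The part of RNA quality in these levels was not tested. Without L-GMP B and GMP D together, a choice made after seeing the data, 7 of the 10 genes rose and none fell. Over all 18193 genes 603 rose and 954 fell in that setting.

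**Figure D3:**
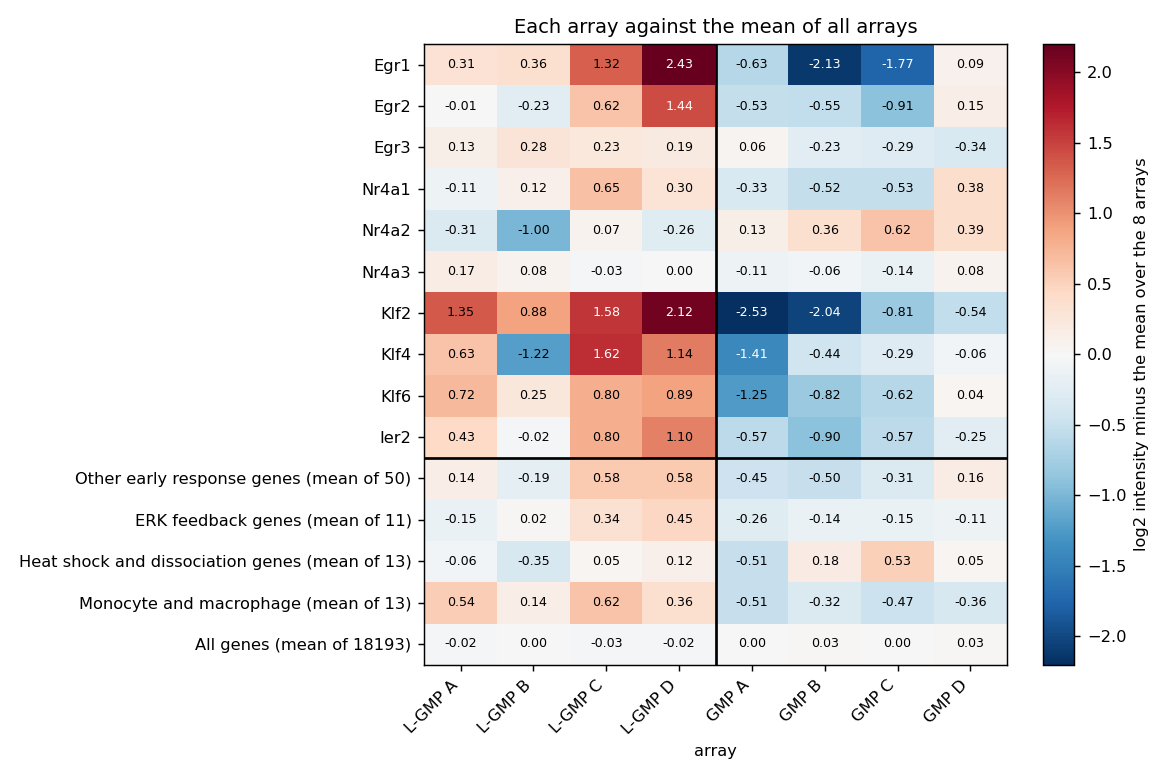
Log2 intensity minus the mean over the 8 arrays for each of the 10 genes (upper rows) and the mean of 4 gene lists and of all genes (lower rows), with L-GMP arrays in the left 4 columns and GMP arrays in the right 4. Red is above and blue below the mean. The deviations of Egr1 run from -2.13 in GMP B to 2.43 in L-GMP D, and Nr4a2 carries the opposite colours to Klf2 on 7 of the 8 arrays.

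The genes nearest to those with a difference of at least 1 included many other early response genes, by the root mean square difference of mean-centred log2 values over the 8 arrays. For Klf2 the nearest of 18192 genes was Fosb, an AP-1 subunit, at 0.20, followed by Flt3 (0.58), the FLT3 ligand receptor, and Pmaip1 (0.59), which encodes the BH3-only protein NOXA. For Klf6 they were Dusp1 (0.20), a phosphatase of MAP kinases, Tiparp (0.21), a mono-ADP-ribosyltransferase, and Fos (0.23). For Ier2 they were Jund (0.15), Zfp36 (0.16), which encodes the mRNA-destabilising protein tristetraprolin, and Nfkbia (0.19), the inhibitor of NF-kB. Egr1 lay nearest to Atf3 (0.53), Ccl3 (0.63) and Cgnl1 (0.66), and Klf4 to Ier5 (0.34), Arhgap24 (0.36) and Ptpro (0.36). Among the 10 themselves, Egr2 stood 11 in the order for Egr1 (0.80), Ier2 stood 15 for Klf6 (0.31), Nr4a1 stood 229 for Egr1 (1.09), 347 for Klf6 (0.52), 380 for Ier2 (0.44) and 560 for Klf2 (1.37), and Nr4a2 stood 17172 for Klf2 (1.94). Genes that rose together could also stand far apart. For Ier2, Klf2 stood 17274 (1.04) and Egr1 15087 (0.81), with Nr4a2 at 17036 (0.99). The order depends on the size of the differences and is not symmetric: Klf6 stood 34 for Egr1, but Egr1 stood 14531 for Klf6 (0.88 in both). These distances include the difference between the groups and are a description.

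Of 50 other early response genes, all measured, 14 rose and 2 fell, where 4.78% of all genes rose and 7.27% fell. The median difference of the 50 was 0.43, against 0.01 over all genes. Gem, a small GTP-binding protein, measured 5.96, 7.38, 8.06 and 7.65 in L-GMPs A to D, against 3.86, 3.11, 3.33 and 4.06 in GMPs A to D, a difference of 3.67 (SE 0.39, limma adjusted p 0.00016). Fosb measured 9.51, 8.85, 9.77 and 10.38 in L-GMPs A to D, against 5.46, 6.59, 7.21 and 7.63 in GMPs A to D, a difference of 2.90 (SE 0.44, adjusted p 0.00173). In both genes the groups lay far apart, and Fosb had the order of arrays seen in Klf2. Atf3, a stress-induced factor of the ATF family, measured 7.07, 5.94, 8.53 and 9.09 in L-GMPs A to D, against 5.11, 4.35, 4.46 and 5.96 in GMPs A to D, a difference of 2.69 (SE 0.61, adjusted p 0.0173) that was lost without GMP B (0.0577) or GMP C (0.0592) and with a trended robust prior (0.0675). Jun, Jund, Maff, Btg1, Zfp36, Dusp1, Nfkbia, Gadd45g, Rhob, Per1 and Ccl3 also rose, by 0.63 to 1.90. Fos differed by 1.01 (SE 0.33) and did not pass, with an adjusted p of 0.0724. The 2 genes that fell were Zfp36l1, which encodes an mRNA-destabilising protein related to tristetraprolin (-2.70, SE 0.26, adjusted p 8.62e-05), and Rgs1, a regulator of G protein signalling (-2.55, SE 0.40, adjusted p 0.00215). The count of 14 that rose was 10 without GMP B or without GMP C, 23 without L-GMP B, and 24 with each array centred on its median. Over all genes 870 rose as deposited, 543 without GMP B, 514 without GMP C, 882 without L-GMP B and 2161 after centring.

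**Figure D4:**
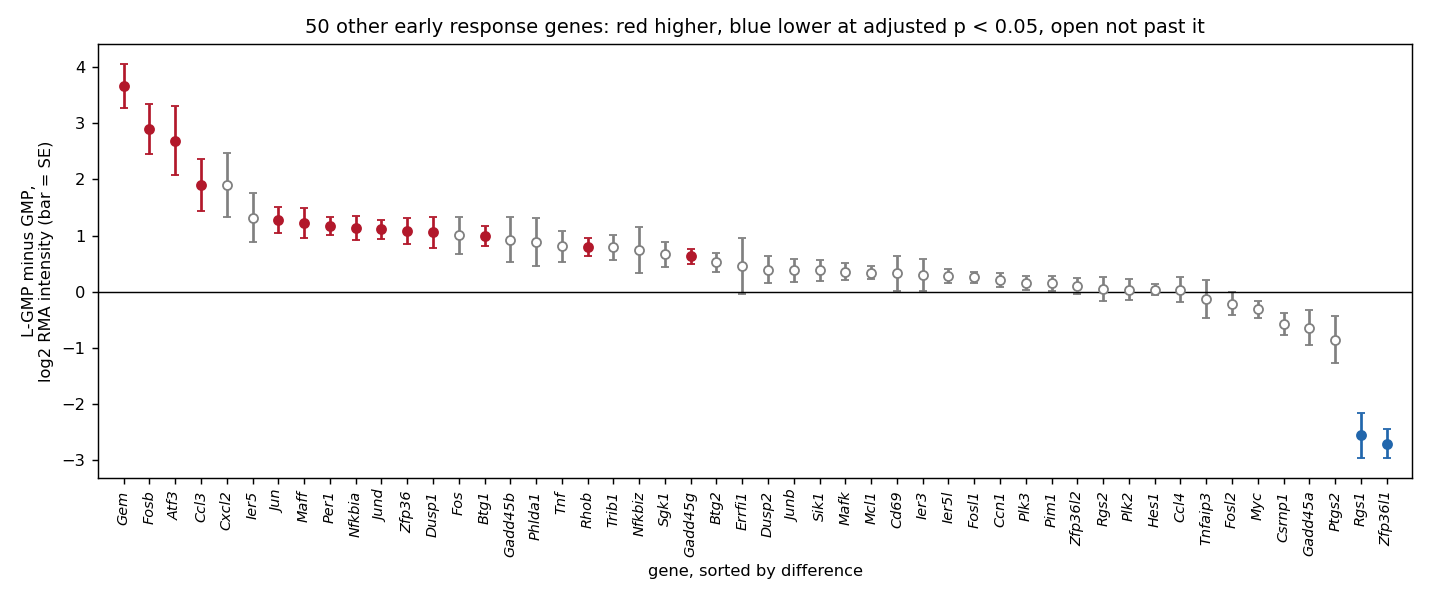
Log2 difference, L-GMP minus GMP, with SE, for 50 other early response genes in order of their difference. Red points rose, blue points fell and open points did not pass. Gem stands highest at 3.67, and Rgs1 (-2.55) and Zfp36l1 (-2.70) lie below all others.

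Relatives of the 10 genes are set beside all genes, of which 12.1% passed the test, 4.78% higher and 7.27% lower in L-GMPs. Of the other KLF genes, 13 of 14 were measured, 0 rose and 1 fell (2 higher and 4 lower at an unadjusted p under 0.05 by limma), with a median of -0.04, or 0.10 and 0.06 under the other 2 scalings, against 0.01 over all genes (0.15 and 0.04). The 1 that fell was Klf3, a CACCC-binding repressor, at 6.29, 7.20, 6.18 and 6.69 in L-GMPs A to D, against 7.86, 7.43, 7.65 and 7.70 in GMPs A to D (difference -1.07, SE 0.21, limma adjusted p 0.00722). Klf9 had the widest difference of the 13, at -1.58, and did not pass (limma adjusted p 0.16). It measured 8.74, 5.64, 8.79 and 9.56 in L-GMPs A to D, against 9.52 to 9.88 in GMPs. Without L-GMP B 3 of the 13 fell, and 2 rose with each array centred on its median. Over all genes 1325 fell without L-GMP B and 2161 rose after centring. Among Egr4, Nab1, Nab2 and Wt1, none passed and 0 had an unadjusted p under 0.05, with a median of 0.07. The widest difference was that of Wt1 at 0.19 (adjusted p 0.342). Wt1 measured 2.63 to 2.93 in L-GMPs and 2.38 to 2.71 in GMPs, about the upper limit of the dimmest 10% of probe sets or below it (2.84 to 2.92), and so carries little information. Of the 3 RXR partners of NR4A proteins, Rxra rose by 0.41 (SE 0.10, adjusted p 0.0218), which was lost without L-GMP C, L-GMP D, GMP B or GMP C (0.0525 to 0.073). With the mean of its probe sets Rxra differed by 0.03 (adjusted p 0.87).

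Upstream of these genes, 19 of 25 factors and kinases were measured. Of these 5 rose (26.3%) and 3 fell (15.8%), against 4.78% and 7.27% of all genes, with a median of 0.12. Srf, which encodes serum response factor, measured 9.67, 9.75, 9.73 and 9.71 in L-GMPs A to D, against 9.46, 9.12, 9.08 and 9.21 in GMPs A to D, a difference of 0.50 (SE 0.11, limma adjusted p 0.012) with no overlap. Its coactivator Mrtfb rose by 0.56 (adjusted p 0.00815), and Mapk7, which encodes ERK5, a kinase that induces KLF2 through MEF2 factors, by 0.52 (adjusted p 0.0133). Mef2a and Mef2d rose by 0.51 and 0.50, while Mef2c (0.29, adjusted p 0.262) did not pass. The kinase genes Map2k5 (0.09, adjusted p 0.595) and Map3k3 (0.39, adjusted p 0.181) of the same list did not pass either. The part of any of these genes in the level of Klf2 was not tested. Crem, a cyclic AMP-responsive factor (-0.93, adjusted p 0.00267), the kinase gene Rps6ka3 (-0.83, adjusted p 0.0109) and Elk3, a partner of serum response factor (-0.51, adjusted p 0.0251), fell. Of 11 genes that ERK induces and that feed back on it, 2 rose and 0 fell (5 higher and 0 lower at an unadjusted p under 0.05), with a median of 0.32. Dusp6, a phosphatase of ERK, measured 8.33, 8.88, 9.46 and 10.23 in L-GMPs A to D, against 7.56, 7.69, 8.09 and 8.17 in GMPs A to D (1.35, SE 0.34, adjusted p 0.0266). That call was lost without L-GMP C, GMP A, GMP B or GMP C (0.0563 to 0.0774) and with a trended robust prior (0.0524), and Etv4 (0.58, adjusted p 0.018) lost its call without L-GMP C, GMP B, GMP C or GMP D (0.051 to 0.0606). With the mean of its probe sets Etv4 differed by 0.21 (adjusted p 0.279).

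Genes of the monocyte or granulocyte choice gave 1 rise among 8 measured of 9, where 4.78% of all genes rose and 7.27% fell. It was Cebpb, by 0.52 (limma adjusted p 0.0345), a call lost without L-GMP A, L-GMP C, GMP A, GMP B or GMP C (0.0691 to 0.0951). None of 3 measured of the 4 genes reported as KLF2 targets in lymphocytes passed (1 higher and 1 lower at an unadjusted p under 0.05). S1pr1, a sphingosine 1-phosphate receptor, differed by -0.78 (adjusted p 0.0636, or 0.0145 without GMP A). It was dim, at 2.65 to 3.22 in L-GMPs and 3.17 to 4.51 in GMPs. Of 14 heat shock genes 13 were measured and none passed (1 higher and 2 lower at an unadjusted p under 0.05), with a median of -0.18 and the widest difference in Hsph1 (-0.62, adjusted p 0.0891, or 0.0377 without GMP A). Their summed intensity was 34318 to 38158 in L-GMPs and 35496 to 45092 in GMPs. Bright genes such as Hspa8 (13.05 to 13.14 in L-GMPs and 12.91 to 13.23 in GMPs) make up most of these sums. The sums therefore say little about the dimmer genes of the list. Hspa1b, an inducible member with a wide spread, measured 5.31, 5.43, 6.54 and 6.62 in L-GMPs A to D, against 3.02, 7.04, 8.33 and 5.78 in GMPs A to D. The part of cell handling in the levels of the early response genes was not tested.

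Of 14 markers of monocytes and macrophages listed, 13 were measured, 7 rose and 1 fell, with a median of 0.66. Over all genes 4.78% rose and 7.27% fell. The mean deviation of these markers was 0.54, 0.14, 0.62 and 0.36 in L-GMPs A to D, against -0.51, -0.32, -0.47 and -0.36 in GMPs A to D. Within groups this was not the order of arrays seen in the 10 genes. Their summed linear intensity was 12263 to 17255 in L-GMPs, against 6949 to 7883 in GMPs, with no overlap, and F13a1, the brightest of them, rose by 1.57 (SE 0.10, limma adjusted p 2.45e-06). Among the others Cd68, Mpeg1, Ctss, Ccr2, Adgre1 and Lyz2 rose and Cx3cr1 fell (-0.75, adjusted p 0.0265). Csf1r (-0.24), Fcgr1 (-0.23), Cd14 (0.99) and Ms4a6c (0.57) did not pass, and Ms4a7 lay below the lower quartile in both groups. Among dendritic cell markers Flt3 alone of 7 measured rose (3.29, adjusted p 2.23e-05), with summed intensities of 959 to 2194 in L-GMPs and 227 to 288 in GMPs. Flt3, at 9.67 to 11.01 on the log2 scale in L-GMPs, makes up most of the L-GMP sums, so they say little about the other markers. Markers of eosinophils, basophils and mast cells fell in 8 of 9, with sums of 503 to 1294 in L-GMPs and 4000 to 10722 in GMPs, although the brightest, Mcpt8, did not pass (-0.46, adjusted p 0.253). In bulk samples such as these, fewer cells of a type and less RNA per cell cannot be told apart, and the part of cell make-up in the levels of the 10 genes was not tested.

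Beside the counts below, 4.78% of all genes rose and 7.27% fell. Sums of mature neutrophil markers, of which 2 of 9 fell, were 378 to 1627 in L-GMPs and 899 to 4327 in GMPs. S100a9 had a difference of -2.70 (limma adjusted p 0.0695, or 0.0218 without L-GMP A and 0.0401 without GMP C). Megakaryocyte markers fell in 3 of 6 (175 to 244 in L-GMPs and 455 to 1958 in GMPs, Itga2b by 1.68) and erythroid markers in 2 of 6 (132 to 162 in L-GMPs and 554 to 829 in GMPs, Car2 by 4.32). Car2 alone of the 6 erythroid markers was left without the dimmest 50% of genes, so their sums say little about the others. No B cell marker of 6 and no T or NK cell marker of 5 passed (1 higher in each list at an unadjusted p under 0.05), with sums of 402 to 711 in L-GMPs and 424 to 484 in GMPs for B cells and 68 to 76 in L-GMPs and 62 to 72 in GMPs for T and NK cells. Cd79b differed by -0.40 (adjusted p 0.275), and Cd3e by -0.11 (adjusted p 0.612). Of 6 endothelial markers 1 rose and 2 fell, Pecam1 rising by 0.75 (adjusted p 0.00272), while Cdh5 and Kdr lay below the lower quartile in both groups.

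The calls on Klf2, Klf6 and Ier2 were kept in each of 19 other settings, which changed the scaling, filter, offset, probe set rule, prior, weights or arrays used. Egr1 kept its call in 15 of them, Nr4a2 in 10 and Egr3 in 8. The sign of the difference turned in none of these settings for the brightest probe set of any of the 10 genes. Klf4 passed in 2 of the other settings, both of which left out L-GMP B. Egr2 passed in 3 and Nr4a1 in 2 of their other settings.

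**Figure D5:**
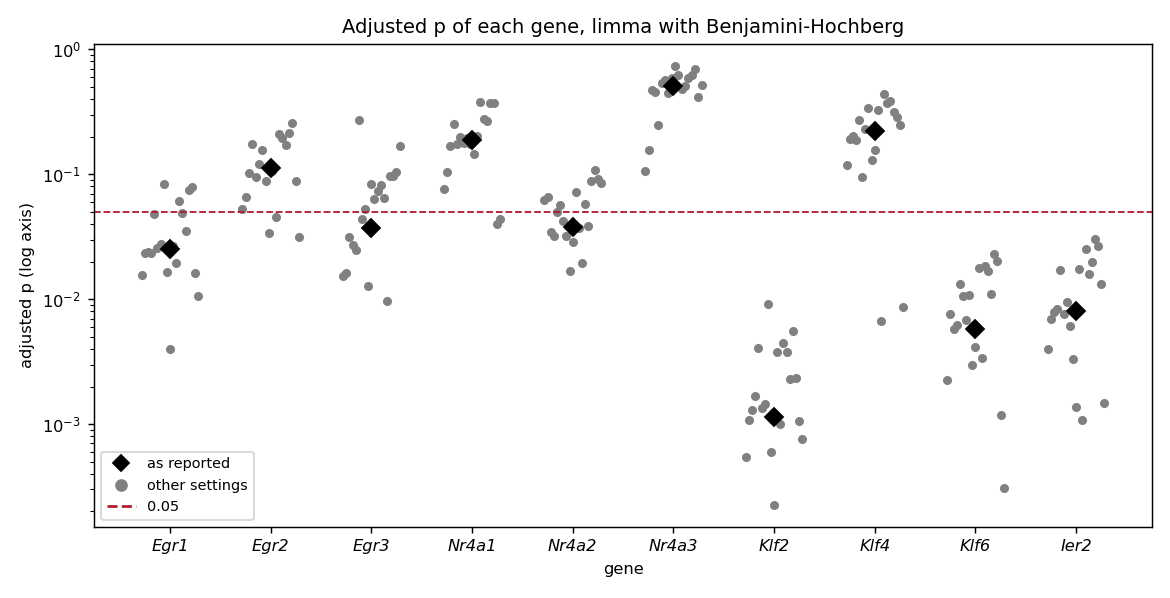
Limma adjusted p (log axis) of each of the 10 genes as reported (black diamond) and in the other settings (grey points), with the dashed line at 0.05. All points of Klf2, Klf6 and Ier2 lie below the line and all points of Nr4a3 above it. Those of Egr1, Egr2, Egr3, Nr4a1, Nr4a2 and Klf4 lie on both sides.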

How the data were processed

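Total RNA of sorted cells was labelled with biotin and hybridised to Affymetrix arrays, and per the submitters' processing notes RMA was used (version not given in the sources used here). The deposited values are linear intensities (3.54 to 29746.73), on a scale read from the values, with 0 unused columns. The labels name a whole transcript sense assay, but the probe sets belong to a 3′ array, so the strand and stretch measured are not settled. Detection calls and scan dates were not used, and precision is limited by having 4 arrays per group.

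Log2 was taken, 64 control probe sets were left out, and each gene was represented by the brightest of its probe sets, by mean over the 8 arrays. Probe sets with exactly 1 symbol numbered 34945, with several 932 and with none 9160. Groups were taken from titles and compared with limma 3.58.1 in R 4.3.3 (lmFit, eBayes, 2-sided, Benjamini-Hochberg adjustment at 0.05), over all genes, or over all probe sets for a gene's further probe sets. Intervals are 95% intervals of that fit. The fit was tested on simulated data.

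The members, gene lists and motifs were chosen with earlier results of these data known. Named are all members, up to 4 genes of each list with the largest change past the threshold (or the largest change where none passed), the brightest marker of each cell type, and the 3 nearest genes of members that differed by at least 1. Chosen after their values were seen were the other early response genes named as risen or fallen, Fos among the 50, Srf, Mef2a, Mef2c, Mef2d, Map2k5, Map3k3, Elk3, Klf9, Egr4, Nab1, Nab2, Hspa8, Hspa1b, the monocyte and macrophage markers other than F13a1, and the genes that check the labels (Hoxa9, Meis1, Mpo, Elane, Prtn3, Ctsg, Kit, Cd34 and Fcgr3). Alternatives were 2 scalings, 2 filters on dim genes, an offset of 16, 2 probe set rules, a trended robust prior, array weights, a replicate block and each array left out.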

Additional observations from a re-analysis of the deposited data

Results flagged for a closer look

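Groups of 4 arrays were searched for an array far from the other 3, and 5 of 98 groups had one, where chance flags about 1 in 20. For Klf6 1433508_at, GMP D measured 9.87 and the other GMPs 8.38 to 8.60. For Klf6 1427742_a_at, L-GMP B measured 8.53 and the other L-GMPs 9.13 to 9.18. For Etv4, GMP A measured 4.02 and the other GMPs 3.48 to 3.54. For S1pr1, L-GMP C measured 2.65 and the other L-GMPs 3.12 to 3.22. For Car2, L-GMP D measured 5.26 and the other L-GMPs 4.18 to 4.35.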

How the results depend on the processing

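With 4 arrays per group, single arrays decide several calls. Leaving out each array in turn gave 1411 to 2388 genes past the threshold, 514 to 942 higher and 868 to 1446 lower in L-GMPs, with the fewest without GMP B (1411) and GMP D (1425). Of the 10 early response genes it gave 3 to 7, with 3 to 6 higher and 0 to 1 lower, and of the 50 other early response genes 12 to 25, with 10 to 23 higher and 2 to 3 lower. A trended robust prior left 3 of the 10 higher. None of the 10 was lower (0) after median centring, quantile normalization, averaging a gene's probe sets, or leaving out L-GMP B and GMP D together. That pair left out, chosen after seeing the data, gave 26 of the 50, 24 of them higher, and median centring likewise 26 and 24. Over all genes that pair left out gave 603 higher and 954 lower. Without the dimmest 50% of genes 1 of the 50 was lower. Centring raised the median difference of all genes to 0.15 and the genes higher to 2161, so that 70.1% of calls were higher (2161 against 923 lower), against 39.7% (870 against 1323) as deposited and 49.5% (1252 against 1279) with quantile normalization. The sign turned for Cd3e (0.03) and Egr3 1436329_at (0.01) after centring, and for Nr4a2 1450749_a_at after centring (0.09), quantile normalization (0.11) and without L-GMP D (0.02) or GMP A (0.00), in a range of -0.12 to 0.02 over arrays left out. Over the 10 genes, 156 of 187 alternative values kept sign and call, 24 lost a call, 7 gained one and 0 turned. Genes dimmer than a filter have no value under it.

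The replicate letters do not mark shared mice in the labels. Deviations of same-letter arrays from their group means correlated at -0.0465, -0.00941, -0.0669 and 0.112 for A to D, so the letters were not taken as pairs. With the letter as a block 1760 genes passed, 654 higher and 1106 lower, and 6 of the 10 genes, with Egr2 gaining (0.0337) and Egr3 losing (0.084) its call, as did Rxra (0.0561), Etv4 (0.0502) and Cebpb (0.0828).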
